A study of Mus musculus with 32 samples.

Results

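Bone morphogenetic protein (BMP) signalling was described in the cells of the mouse median eminence (ME) through 10 genes taken by symbol from the deposited matrix of 27998 genes. They were the secreted ligands Bmp4, Bmp6 and Bmp7, the type I receptors Bmpr1a and Bmpr1b, the type II receptor Bmpr2, and the target genes Id1, Id2, Id3 and Id4. All 10 were found in the matrix, and 9 of them reached 50 UMIs over all cells. A UMI (unique molecular identifier) marks 1 captured transcript. The ME came from male C57B/L6 mice aged 40 to 47 days, 5 that were fasted overnight for 16 h and 5 that were fed again for 1 h after that fast. Mice of a condition were pooled, and live cells were sorted and divided over 2 libraries. Each barcode in the matrix carries a number from 1 to 4 that nothing in the labels or the matrix ties to a library or to a condition. All cells were therefore taken as 1 sample without replicates, the refed and fasted conditions were not compared, and no p-value is given.

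BMP ligands are secreted proteins that bring type I and type II receptors together at the surface of the receiving cell. The receptors pass the signal to SMAD proteins, which enter the nucleus and switch on target genes, with the Id genes among the best known. ID proteins are helix-loop-helix proteins without a DNA-binding region. They pair with E proteins such as TCF3, TCF4 and TCF12 and so hold back partners such as OLIG2, and in the oligodendrocyte lineage they are known as brakes on differentiation.

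The matrix held 5982 cells with 1533 to 25054 UMIs per cell (median 3837) and 29288898 UMIs in all. The 4 barcode numbers held 1359 to 1642 cells, and 21 barcode sequences occurred under more than 1 number. Cells were clustered without the 10 genes and without 55 further genes of the pathway. 13 cell types were named from marker genes, each with the ending -like, and 3 clusters stayed unnamed. In each of the 13 types all markers on its own list were detected, and the summed level of that list was 3.58 to 242 times higher than in any other named type. The same lists gave the names, so these ratios describe the types and are no test of the names. Levels are given in CPM, the UMIs of a gene divided by all UMIs of the group and multiplied by 1000000. Unnamed cluster 14 (487 cells) had tanycyte markers at a summed 1782 CPM, against 2646 CPM in tanycyte-like cells. Transcripts were tagged at their 3' end, 1 UMI for each, so a longer transcript gives no more UMIs and levels of different genes were set side by side without scaling by length. Intervals are at the 95% level and cover counting error only.

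**Figure D1:**
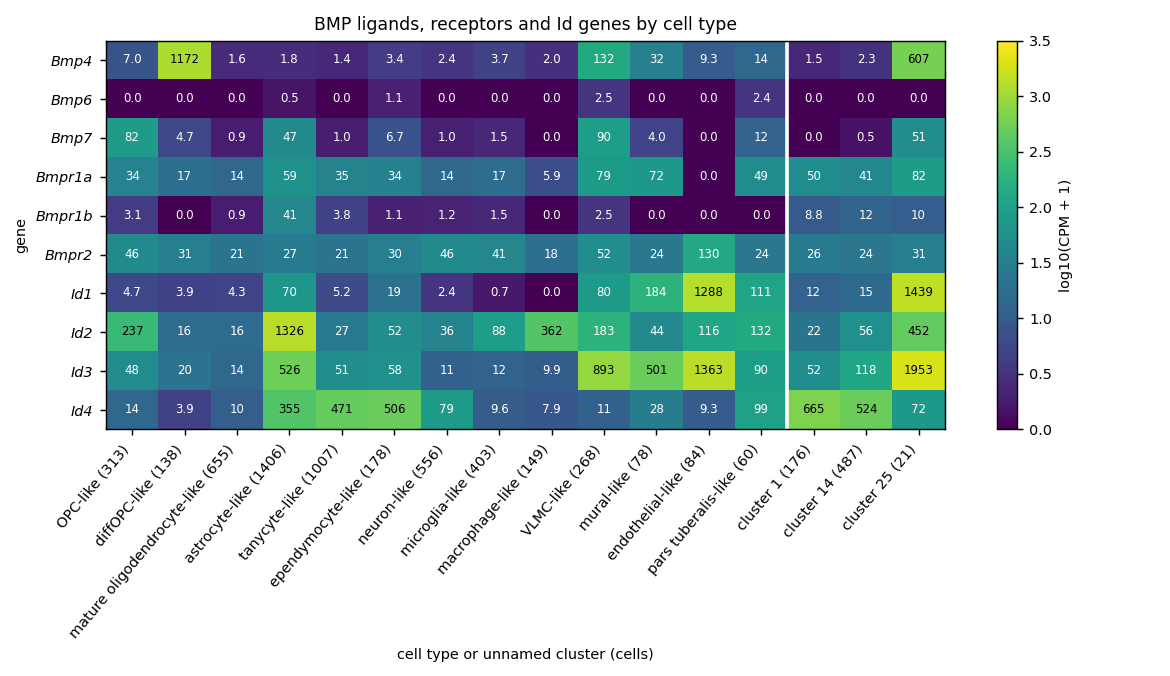
Level of each gene (rows) in 13 named cell types and, right of the white line, 3 unnamed clusters (columns, with the number of cells). Colour is log10(CPM + 1) and the printed number is the CPM: Bmp4 stood at 1172 CPM in diffOPC-like cells, Id2 at 1326 CPM in astrocyte-like cells, and Id1 and Id3 at 1288 and 1363 CPM in endothelial-like cells.

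Bmp4, a ligand that oligodendrocyte precursor cells (OPCs) are known to respond to, was highest in differentiating OPC (diffOPC)-like cells. Its level was 1172 CPM (1113 to 1233) in the 138 diffOPC-like cells, and 117 of these cells (84.8%, exact interval 77.7 to 90.3%) held at least 1 UMI. The level was 1119, 1193, 1059 and 1345 CPM in barcode numbers 1 to 4. These cells made up 2.31% of all cells and gave 86.1% (84.4 to 87.7%) of the 1743 Bmp4 UMIs. The median cell of the type held 10 Bmp4 UMIs and the highest held 39, so no single cell carried the value. The next type, the vascular and leptomeningeal (VLMC)-like cells, stood at 132 CPM (108 to 159), and the ratio between both was 8.90 (7.31 to 10.9). VLMC-like cells were alike in the 4 barcode numbers, at 112, 108, 152 and 154 CPM. Bmp4 was detected in 31.0% of them at a median depth of 2888 UMIs. The share was 0.596% in tanycyte-like cells at a median depth of 4081 UMIs and 0.498% in astrocyte-like cells at 2663 UMIs, and these shares were taken as the background. After each cell was thinned to 1000 UMIs, 58.7% of diffOPC-like and 11.2% of VLMC-like cells still held a Bmp4 UMI. An unnamed cluster of 21 cells, led by Mgp, Fxyd5 and Igfbp6 and with 7 of 8 VLMC markers detected, stood at 607 CPM (462 to 782), with 346 to 1124 CPM in the barcode numbers.

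The Bmp4 gene lies on chromosome 14 from 46383520 to 46390669 on the minus strand (GRCm38). The 250 bases before its RefSeq start are printed because Bmp4 had the largest log2 differences of the members tested along the oligodendrocyte lineage. They cover chr14:46390670-46390919 on the minus strand of GRCm38.p6 and overlap no annotated exon. Capitals mark 2 motifs searched on both strands, GGCGCC, a GC-rich element that SMAD proteins are known to bind, and CANNTG, the E-box bound by helix-loop-helix factors. The motifs share no letters where they were found.
Bmp4: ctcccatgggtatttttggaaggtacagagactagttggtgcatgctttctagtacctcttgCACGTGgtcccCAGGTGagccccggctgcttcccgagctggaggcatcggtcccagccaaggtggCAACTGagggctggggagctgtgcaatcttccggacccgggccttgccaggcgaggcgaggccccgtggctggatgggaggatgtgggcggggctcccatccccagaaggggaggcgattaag
This stretch held 3 E-boxes, which began 188, 177 and 123 bases before the start, and no GGCGCC. Searches for GTCT and GTCTAGAC, which are not marked, found 1 and 0. Over the same window of 32851 promoters in the table, 66.2% held an E-box and 9.59% held GGCGCC. A match is a description of the letters and was not tested for binding.

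Bmp7, another ligand of the family, shared VLMC-like cells with Bmp4 as a source and was low in diffOPC-like cells. Its level was 89.9 CPM (70.4 to 113) in VLMC-like, 82.1 CPM (67.2 to 99.4) in OPC-like and 46.96 CPM (40.4 to 54.3) in astrocyte-like cells, and it was at most 11.8 CPM in each of the other 10 types. VLMC-like and OPC-like cells could not be ordered, with a ratio of 1.09 (0.801 to 1.49). The barcode numbers gave 118, 54.0, 98.2 and 90.0 CPM in VLMC-like cells and 65.5, 83.1, 94.6 and 96.9 CPM in OPC-like cells. Astrocyte-like cells were numerous and gave 45.4% (40.4 to 50.4%) of the 401 Bmp7 UMIs, OPC-like cells 26.2% and VLMC-like cells 18.2%. Bmp7 was held by 29.4% of OPC-like cells against 4.35% of diffOPC-like cells, although the latter were deeper (median 9036 against 4030 UMIs). Tanycyte-like cells, at 0.951 CPM and 0.397% of cells, mark the background.

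Bmp6, a ligand made by liver endothelium and known for its part in iron balance, was hardly detected. 6 UMIs were found in 5982 cells (0.205 CPM, 0.0752 to 0.446), each in a different cell. Where a count is 0, the limit given is the level that 3 counts would have. For Bmp6 it was 13.95 CPM in endothelial-like cells, where the count was 0 and few UMIs were held. In the deep neuron-like cells the count was also 0, with a limit of 0.442 CPM. Of 13 further ligands on the pathway list, 10 had a UMI and 5 reached 50 UMIs. The top value was in VLMC-like cells for Bmp2 (39.4 CPM), Bmp5 (66.5 CPM) and Gdf10 (13.5 CPM). Other types had it for 2 ligands, Bmp3 in pars tuberalis-like cells at 25.9 CPM and Gdf11 in tanycyte-like cells at 35.2 CPM. The ratio to the next type had an interval that included 1 for Bmp2 (0.943 to 5.25), Bmp5 (0.780 to 3.20) and Gdf11 (0.737 to 5.49), so their order was not resolved. Bmp4 in diffOPC-like cells was the highest level of any ligand on the list in any named type.

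The receptors were low and, except for Bmpr1b, widespread. Bmpr1a, a type I receptor, was found in 12 of 13 types. Its top level was 78.8 CPM (60.7 to 101) in VLMC-like cells, followed by mural-like cells at 72.1 CPM (42.7 to 114), which could not be ordered (ratio 1.09, 0.640 to 1.96), and next in astrocyte-like cells at 59.1 CPM (51.7 to 67.3). OPC-like, diffOPC-like and mature oligodendrocyte-like cells stood at 34.4, 17.2 and 14.2 CPM. In mural-like cells the barcode numbers spread from 17.8 to 153 CPM, and without number 4 the level was 39.4 CPM. The count in endothelial-like cells was 0, with the same limit of 13.95 CPM (3 counts).

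Bmpr1b, the other type I receptor, was found mainly in astrocyte-like cells. Astrocyte-like cells held 157 of its 228 UMIs (68.9%, 62.4 to 74.8%) and stood at 40.5 CPM (34.4 to 47.4). Barcode numbers 1 to 4 gave 33.1, 32.0, 51.5 and 49.5 CPM. The next type, tanycyte-like cells, stood at 3.81 CPM (2.18 to 6.18), so that the ratio was 10.6 (6.35 to 19.1). Unnamed cluster 14, led by Mia and Gfap, was between them at 12.4 CPM (8.20 to 18.1). Bmpr1b was held by 10.4% of astrocyte-like cells and by 0.496% of microglia-like cells, at median depths of 2663 and 3080 UMIs.

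Bmpr2, the type II receptor that pairs with both, was detected in all 13 types. It was highest in endothelial-like cells at 130 CPM (86.5 to 188), on 28 UMIs, with 73.8, 101, 142 and 281 CPM in barcode numbers 1 to 4. The other types lay between 17.8 CPM in macrophage-like and 51.7 CPM in VLMC-like cells, where neighbours in the order had overlapping intervals. A UMI of Bmpr2 together with one of Bmpr1a or Bmpr1b was found in the same cell in 8.63% (6.43 to 11.3%) of neuron-like cells, at a median depth of 12822 UMIs. In the other 12 types this share lay between 0 and 5%. None of the 84 endothelial-like cells held a UMI of either type I receptor. The exact interval allows up to 4.30% of cells with a captured UMI, and at their median of 2246 UMIs it sets no limit on cells that express the genes. With Acvr1 and Acvrl1, further type I receptors on the pathway list, 19.0% of endothelial-like cells held both kinds. Acvrl1, an endothelial receptor for circulating BMPs, stood at 484 CPM (395 to 586) there and Eng, its co-receptor, at 502 CPM (412 to 606).

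The Id genes, the common read-out of the pathway, differed between the cell types in level and make-up. Summed over the 4 genes, their level was highest in endothelial-like cells at 2777 CPM (2558 to 3009), then in astrocyte-like cells at 2276 CPM (2229 to 2324) and VLMC-like cells at 1167 CPM (1094 to 1244). It was lowest in diffOPC-like cells at 43.7 CPM (33.03 to 56.8) and mature oligodendrocyte-like cells at 44.1 CPM (38.1 to 50.7), which overlapped. The leading gene differed between groups of types. Id1 and Id3 gave 46.4% and 49.1% of the Id UMIs in endothelial-like cells, and Id3 alone gave 76.5% in VLMC-like and 66.1% in mural-like cells. Id2 gave 58.3% in astrocyte-like, 78.1% in OPC-like, 79.9% in microglia-like and 95.3% in macrophage-like cells. Id4 gave 84.9% in tanycyte-like, 79.7% in ependymocyte-like and 61.6% in neuron-like cells.

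**Figure D2:**
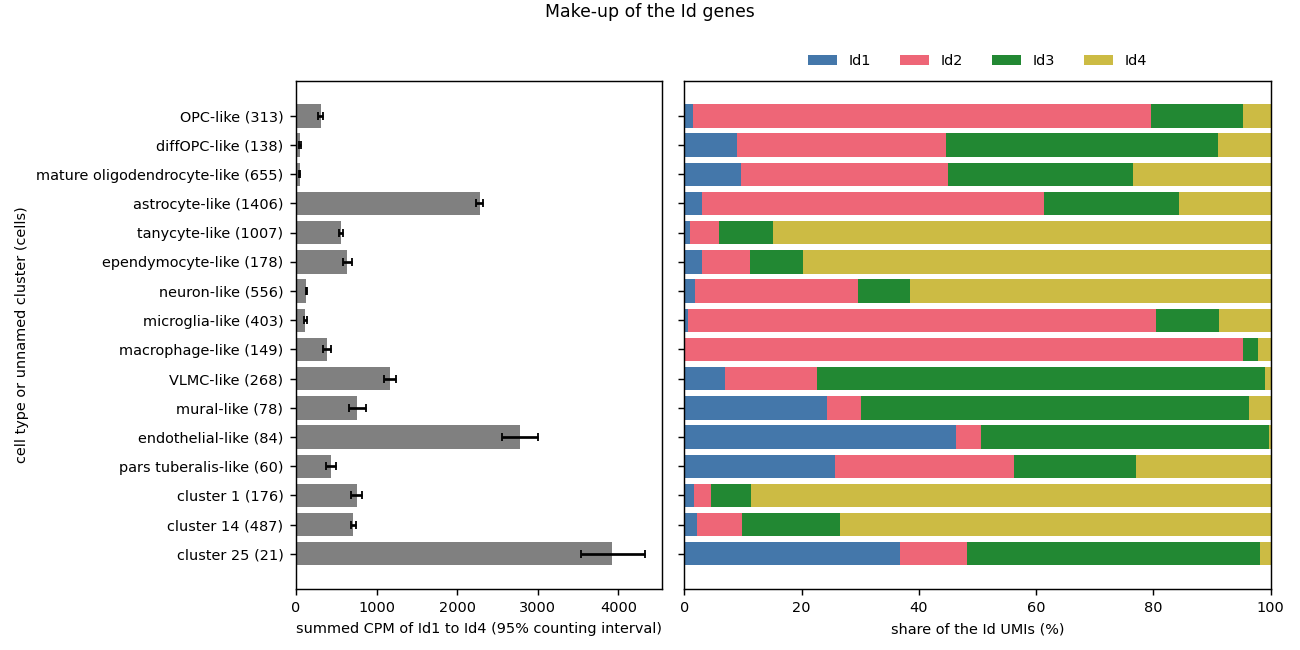
Left, summed level of Id1 to Id4 in CPM with its counting interval; right, share of each gene in the Id UMIs (percent) for 13 named types and 3 unnamed clusters. Endothelial-like cells reached 2777 CPM with Id1 and Id3 in near equal shares, astrocyte-like cells 2276 CPM with 58.3% from Id2, and tanycyte-like cells took 84.9% from Id4.

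Id1 was highest in endothelial-like cells among the named types. Its level in endothelial-like cells was 1288 CPM (1141 to 1449), and the barcode numbers gave 1292, 1031, 1685 and 1312 CPM. Mural-like cells followed at 184 CPM (135 to 246), with a ratio of 6.99 (5.10 to 9.77), and stood at 143 CPM without the cell that held the most. Pars tuberalis-like cells stood at 111 CPM, but barcode number 3 held 43 of the 47 UMIs, 18 of them in 1 cell, and without that number the level was 12.5 CPM. VLMC-like and astrocyte-like cells stood at 80.0 CPM (61.8 to 102) and 69.9 CPM (61.8 to 78.8). Id1 was found in 88.1% of endothelial-like cells (median 2246 UMIs) and in 0.248% of microglia-like cells (median 3080 UMIs).

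Id3 followed Id1 in endothelial-like cells and went beyond it elsewhere. It stood at 1363 CPM (1211 to 1528) in endothelial-like, 893 CPM (829 to 960) in VLMC-like, 526 CPM (503 to 549) in astrocyte-like and 501 CPM (417 to 596) in mural-like cells. The first was 1.53 (1.33 to 1.75) times the second, while astrocyte-like and mural-like cells overlapped. Barcode numbers 1 to 4 gave 1458, 931, 1624 and 1874 CPM in endothelial-like and 598, 716, 1125 and 1112 CPM in VLMC-like cells. In mural-like cells they gave 113, 107, 687 and 918 CPM, with numbers 1 and 2 far below numbers 3 and 4, and without number 4 the level was 332 CPM. The level of 7 immediate early genes, which sorting and dissociation are known to induce, was summed (Fos, Fosb, Jun, Junb, Egr1, Ier2, Atf3). This sum was also higher in numbers 3 and 4 than in numbers 1 and 2. It was 690, 1551, 4777 and 4660 CPM in VLMC-like, 903, 338, 3568 and 2058 CPM in mural-like and 701, 994, 2720 and 3997 CPM in endothelial-like cells. Id3 went the other way between numbers 3 and 4 in mural-like cells and between numbers 1 and 2 in endothelial-like cells. In microglia-like cells the sum was 3314 CPM, with 3655, 4328, 1585 and 2192 CPM in numbers 1 to 4. Id3 there stood at 11.8 CPM. The part of the immediate early genes in the Id3 levels was not tested.

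The unnamed cluster of 21 cells had the highest levels of both genes, with Id1 at 1439 CPM (1211 to 1698) and Id3 at 1953 CPM (1685 to 2252). Its 21 cells fell 2, 4, 10 and 5 to barcode numbers 1 to 4. VLMC markers summed to 14588 CPM there against 34105 CPM in VLMC-like cells, endothelial markers summed to 1285 CPM with 4 of 8 detected, and the immediate early genes to 4349 CPM. Id1 is itself among the 10 genes that led this cluster.

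Id2 was highest in astrocyte-like cells. It reached 1326 CPM (1290 to 1363) in astrocyte-like cells, where 91.7% of cells held it and 68.1% after thinning to 1000 UMIs. Barcode numbers 1 to 4 gave 1324, 1495, 1205 and 1240 CPM. The 3 astrocyte-like clusters stood at 1405, 1050 and 1304 CPM. Macrophage-like cells came next at 362 CPM (312 to 419), although 39 of 149 cells carried all of it and the barcode numbers ranged from 157 to 615 CPM. OPC-like cells followed at 237 CPM (211 to 265), with Id2 in 50.2% of cells. Mature oligodendrocyte-like cells, at 15.5 CPM and 7.02% of cells with a median of 6133 UMIs, stood for the background.

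In OPC-like cells Id2 differed between barcode numbers, at 305 and 329 CPM in numbers 1 and 2 and 107 and 130 CPM in numbers 3 and 4. The upper bound of the lowest was 157 CPM and the lower bound of the highest 270 CPM. Astrocyte markers in OPC-like cells summed to 377, 517, 329 and 406 CPM in the same order, with 8 of 8 detected, against 16699 CPM in astrocyte-like cells. Their part in the Id2 level was not tested. The cell with the most Id2 UMIs was called a doublet, and without it the OPC level was 229 CPM. No number is tied to a condition, so whether feeding state goes with this difference cannot be told.

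Among the named types, Id4 was highest in the cells that line the ventricle. Ependymocyte-like cells stood at 506 CPM (460 to 555) and tanycyte-like cells at 471 CPM (451 to 493), which could not be ordered (ratio 1.07, 0.967 to 1.19), followed by astrocyte-like cells at 355 CPM (336 to 374). Barcode numbers 1 to 4 gave 427, 415, 527 and 544 CPM in tanycyte-like cells and 313, 309, 396 and 420 CPM in astrocyte-like cells. The 3 tanycyte-like clusters differed, at 634, 368 and 169 CPM. The 3 astrocyte-like clusters stood at 313, 496 and 374 CPM, so tanycyte-like and astrocyte-like cells overlapped at the level of clusters. Unnamed clusters 1 (led by Fxyd1, Dynlrb2 and Dio3) and 14 stood at 665 and 524 CPM. Neuron-like cells stood at 78.9 CPM (72.4 to 85.9), and among them a cluster led by Vip, Scg2 and Avp reached 248 CPM. Id4 was held by 78.0% of tanycyte-like and 2.73% of microglia-like cells.

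The Id4 gene lies on chromosome 13 from 48261228 to 48266026 on the plus strand. The 250 bases before its RefSeq start, chr13:48260866-48261115 of GRCm38.p6, are printed as an Id promoter that overlaps no annotated exon, with the same motifs in capitals.
Id4: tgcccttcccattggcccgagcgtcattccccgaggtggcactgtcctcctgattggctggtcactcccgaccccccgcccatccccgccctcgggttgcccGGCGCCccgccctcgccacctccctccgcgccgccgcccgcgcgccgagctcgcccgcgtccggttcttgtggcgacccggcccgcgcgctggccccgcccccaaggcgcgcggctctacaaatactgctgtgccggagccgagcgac
It held 1 GGCGCC, 148 bases before the RefSeq start, and no E-box, GTCT or GTCTAGAC. That start lies upstream of the gene start at 48261228 given above. Of the 8 members with an entry in the RefSeq table, 4 had GGCGCC in this window (Bmpr1a, Bmpr2, Id2 and Id4). Bmp4, Bmp6, Bmpr1b and Id3 had none. Over all 32851 promoters the share was 9.59%, counted by promoter, while the 8 members had 10 promoters. The windows of Bmpr1a, Bmpr2 and Id2 overlapped annotated exons. Id1 and Bmp7 had no entry.

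**Figure D3:**
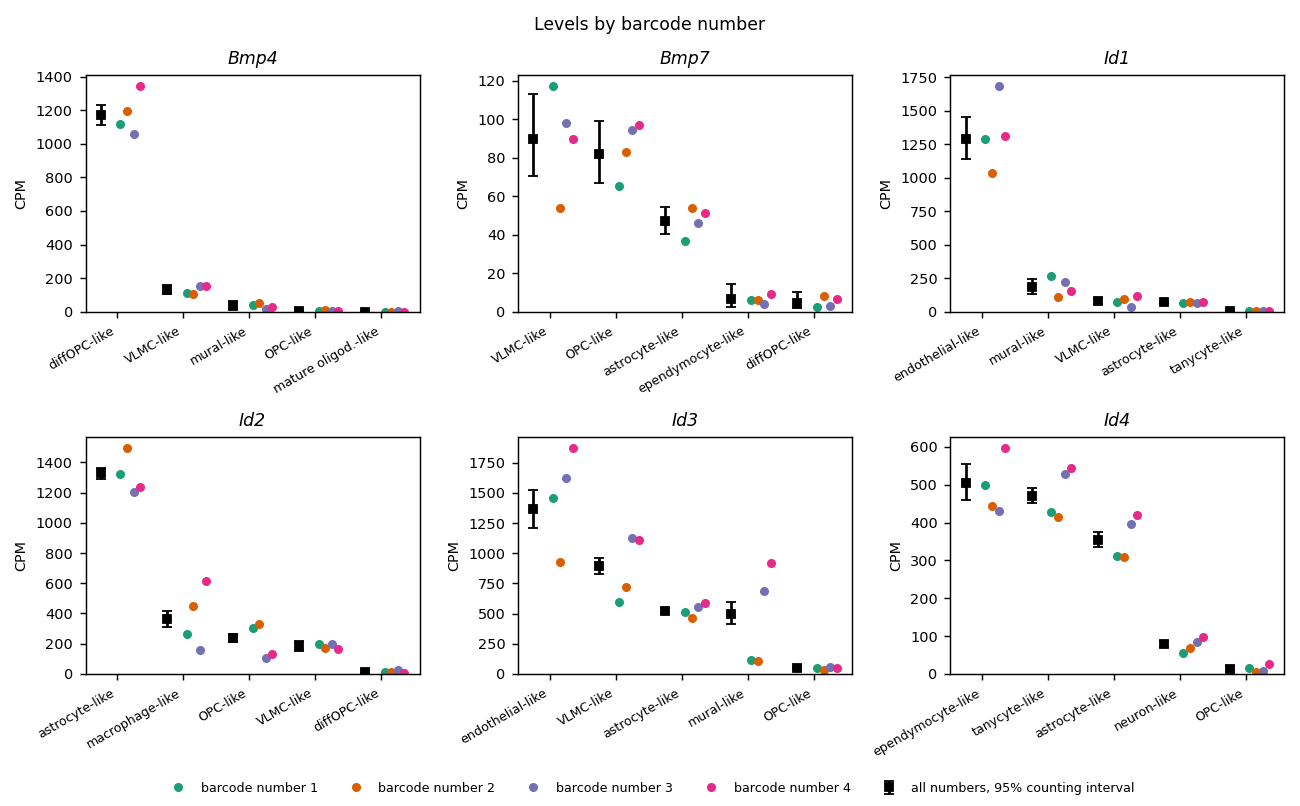
Levels of 6 genes in CPM (vertical axes, from 0) in the cell types named below each panel; squares are all cells with the 95% counting interval and circles the 4 barcode numbers. Bmp4 in diffOPC-like cells stayed between 1059 and 1345 CPM, while Id2 in OPC-like cells and Id3 in mural-like cells each fell into a low and a high pair of numbers.

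Barcode numbers were compared for each member and type with at least 50 UMIs. Of 42 such pairs, 16 had the intervals of the lowest and the highest number apart, against 8.59% of all genes tested in the 13 types. By type, the share of all genes was 6.16% in tanycyte-like, 7.54% in astrocyte-like (3 members), 5.57% in OPC-like, 9.24% in diffOPC-like and 7.95% in mature oligodendrocyte-like cells (0 members). It was 10% in microglia-like (0 members), 14.3% in macrophage-like, 5.63% in ependymocyte-like and 10.5% in neuron-like cells (2 members). It was 8.72% in VLMC-like (2 members), 12.5% in endothelial-like (2 members), 13.5% in pars tuberalis-like and 26.2% in mural-like cells. The types without a number in brackets had 1 member each. Genes with many UMIs pass this more easily, and the Id genes have many. 14 of the 16 were Id genes, and the others were Bmp4 in diffOPC-like and Bmpr1a in neuron-like cells. Without called doublets 15 stayed apart, and Bmpr1a was the one lost. This comparison was added after the data were seen. The ratio of highest to lowest number was 1.27 for Bmp4 in diffOPC-like cells, 1.24 for Id2 in astrocyte-like cells, 1.31 for Id4 in tanycyte-like cells and 3.08 for Id2 in OPC-like cells.

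The oligodendrocyte lineage was followed from OPC-like through diffOPC-like to mature oligodendrocyte-like cells. From OPC-like to diffOPC-like cells Bmp4 went from 7.04 to 1172 CPM, a log2 difference of 6.12 with a pseudocount of 10 CPM and a ratio of 167 (87.5 to 365) on 9 UMIs in OPC-like cells. Over the same step Id2 went from 237 to 15.6 CPM (log2 difference -3.27, ratio 0.0659, 0.0397 to 0.104) and Bmp7 from 82.1 to 4.69 CPM (log2 difference -2.65, ratio 0.0571, 0.0205 to 0.128). Id2 in diffOPC-like cells, on 20 UMIs, was at the level taken above as its background, which limits how low its ratio can be. Of 6 members with at least 50 UMIs over both types, 1 was higher and 2 were lower by 1 log2 unit or more, against 6.58% and 12.7% of 7064 genes. The authors had already taken Bmp4 as a marker of the diffOPC stage in these cells. The counts for this step and the next are therefore a description and no test. The median difference was -0.82 over these 6 and -0.17 over all genes. Id3, Bmpr1a and Bmpr2 were within 1 log2 unit, at -0.93, -0.71 and -0.45.

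From diffOPC-like to mature oligodendrocyte-like cells Bmp4 went back to 1.57 CPM, a log2 difference of -6.67. It was the only 1 of 6 members tested past 1 log2 unit, against 13.6% of 8094 genes lower and 7.57% higher. Id2 stayed at 15.5 CPM, the level taken above as its background. Id3, Bmpr1a, Bmpr2 and Id4 differed by -0.34, -0.17, -0.41 and 0.55. When the lineage was clustered alone, diffOPC cells formed 2 clusters. The one with 88 cells had 1577 CPM of Bmp4 (1486 to 1673) beside 1436 CPM of Gpr17, a gene of early differentiation, and 104 CPM of Mog, a myelin gene. The one with 52 cells had 674 CPM of Bmp4 (609 to 743) beside 429 CPM of Gpr17 and 409 CPM of Mog. The barcode numbers gave 1432 to 1712 CPM in the first and 528 to 901 CPM in the second, with no overlap. Of 313 OPC-like cells, 8 held Bmp4, 157 held Id2 and 3 held both. Of 138 diffOPC-like cells, 117 held Bmp4, 17 held Id2 and 12 held both. Of 655 mature oligodendrocyte-like cells, 7 held Bmp4, 46 held Id2 and 0 held both.

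**Figure D4:**
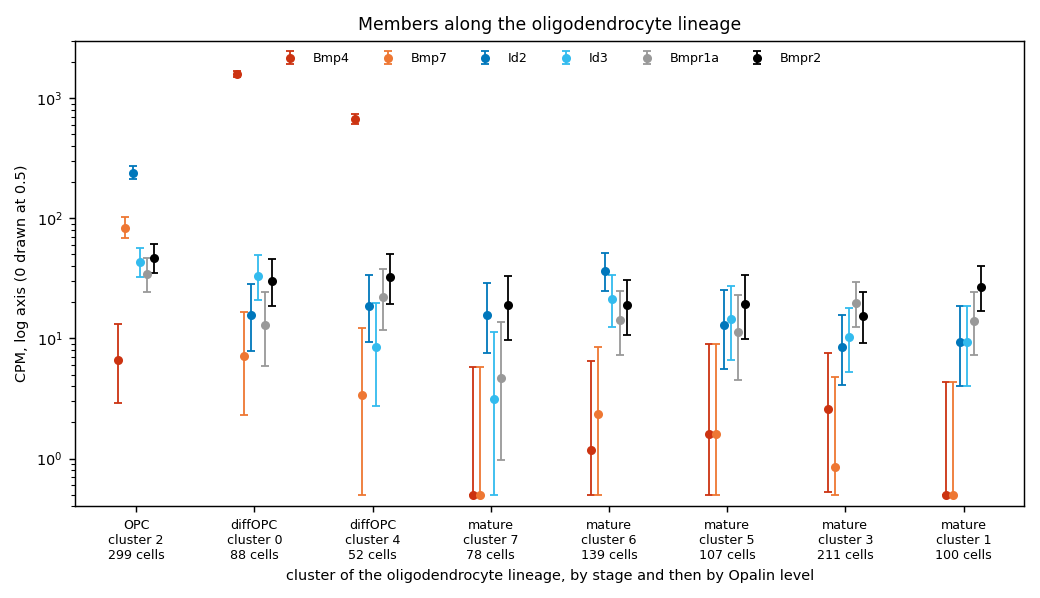
Level of 6 members in CPM (log axis, 0 drawn at 0.5) with 95% counting intervals in the lineage clusters of at least 50 cells, ordered by stage and then by the myelin gene Opalin. Id2 and Bmp7 were highest in the OPC cluster, and Bmp4 stood at 1577 and 674 CPM in the diffOPC clusters and below 3 CPM in the mature ones.

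Tanycyte-like and astrocyte-like cells, both glia of the ME, were compared directly. The pair was chosen as the most abundant types and because their Id genes differed in the authors' cluster lists. Those lists came from these same cells, so the shares of members given here are a description and no test. Of 8 members with at least 50 UMIs, 5 were lower in tanycyte-like cells by 1 log2 unit or more, against 8.06% of 10320 genes, and 0 were higher, against 11.4%. Id2 was lower by a log2 difference of -5.16 (27.4 against 1326 CPM), Id3 by -3.13 (51.1 against 526 CPM), Id1 by -2.39, Bmp7 by -2.38 and Bmpr1b by -1.87. Id4 was the exception among the Id genes at 0.40, a ratio of 1.33 (1.24 to 1.42). Bmpr1a and Bmpr2 differed by -0.61 and -0.23. The median was -2.13 over the 8 members and 0.14 over all genes.

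Across the 13 types, 2 of the 9 members tested, Bmp4 and Id1, were at least 4-fold above the next type with the pseudocount, against 5.6% of 13953 genes. At 2-fold or more there were 5, against 17.5% of genes. Bmpr1b and Id2 were just under 4-fold at 3.66-fold and 3.59-fold. The median fold was 2.27 over the 9 members and 1.25 over all genes. The members were chosen with earlier results of these data known. The authors had already taken Bmp4 as a marker of newly formed oligodendrocytes in these cells. The values over all genes therefore stand beside the members as a description and are no test of them. Id2 passed 4-fold as well with finer clusters, without doublets, with a limit on mitochondrial UMIs, after thinning and without barcode number 4. When the unnamed clusters were compared as types, a treatment added after the data were seen, 0 members passed, since the cluster of 21 cells ranked first or second for Bmp4, Id1, Id2 and Id3.

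The rest of the pathway was read from a list of 55 genes in 6 roles, of which 41 reached 50 UMIs. Of these 41, 3 passed 4-fold over the next type, against 5.6% of 13953 genes. These were Acvrl1 and Eng in endothelial-like cells and Fst, a secreted inhibitor, in VLMC-like cells at 129 CPM (106 to 156). The inhibitors were measured above 50 UMIs for 12 of 14. Nbl1 was the highest, at 637 CPM (542 to 744) in mural-like and 375 CPM (335 to 420) in VLMC-like cells, and Fstl1 reached 225 CPM in VLMC-like cells. Nog, which binds BMP4 directly, was at most 15.6 CPM (9.55 to 24.2), in OPC-like cells, and Chrd at most 14.8 CPM, in VLMC-like cells, neither resolved from the next type (ratios 1.84, 0.999 to 3.30, and 2.36, 0.888 to 6.66). Bambi, a decoy receptor, was higher in tanycyte-like than in astrocyte-like cells by 1.30 on the log2 scale.

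Of 8 SMAD genes and their regulators, 6 reached 50 UMIs. Smad1, a signal carrier, stood at 86.8 CPM (71.4 to 105) in OPC-like and 69.8 CPM in endothelial-like cells, which could not be ordered (ratio 1.24, 0.723 to 2.298). Smad7, an inhibitor of the pathway, went from 14.1 CPM (OPC) to 75.7 CPM (diffOPC) and 159 CPM (mature oligodendrocyte), with log2 differences of 1.83 and 0.98. Of 17 pathway genes tested from OPC-like to diffOPC-like cells, 1 was higher and 4 were lower, against 6.58% and 12.7% of all genes, with a median of -0.54 against -0.17. Those lower included Tmem100 (-2.49), Nbl1 (-1.83) and Olig1 (-1.48). Among the ID partners, Tcf4 and Tcf12 were found at 664 and 161 CPM in OPC-like cells and 469 and 149 CPM in diffOPC-like cells, a difference of less than 1 log2 unit. Rgma, a co-receptor, was highest in astrocyte-like cells at 259 CPM (243 to 275). Of the other target genes, Hey1 was highest in endothelial-like cells at 163 CPM (113 to 226) and Msx1 in pars tuberalis-like cells at 262 CPM.

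The genes with the most similar pattern over the 13 types were sought for each member, by Pearson's r of log2(CPM + 10) among genes with at least 50 UMIs. They were Gm15222 (0.95), Gtf2h1 and Pycr1 for Bmp4, Gm26682 (0.92), Fzd9 and Col16a1 for Bmp7, and 6720489N17Rik (0.89), Uimc1 and Slc39a13 for Bmpr1a. For Bmpr1b they were Foxb1 (0.99), Celrr and Gm45168, and for Bmpr2 Proser2 (0.91), Plxna2 and Spock2. Id1 went with Fzd4 (0.95), Gm29107 and Luzp1, Id2 with Pla2g7 (0.93), Ash1l and Nmrk1, Id3 with Angptl4 (0.93), Timp3 and Gulp1, and Id4 with Dalrd3 (0.96), Oscp1 and Gm16794. Between members the highest value was that of Id1 with Id3 (0.90), and Id2 with Id4 gave 0.10. The points are sums over the same 4 libraries, and many types are at or near 0 for a gene.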

How the data were processed

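Single cells of the ME were captured with the 10x 3' chemistry. The authors aligned the reads to the mouse genome (GRCm38) with Cell Ranger and deposited UMI counts per gene and cell as 1 matrix over all libraries. The 10 members, the pathway list and the comparisons were chosen with earlier results of these data known. Counts were normalised per cell, log-transformed, reduced by principal components and clustered (Leiden) with scanpy 1.11.5, with members and pathway genes left out of the variable genes. Clusters were named from marker lists, doublets were called but kept, and UMIs were summed per type. CPM intervals are exact Poisson, shares Clopper-Pearson and ratios exact conditional intervals. Comparisons used log2(CPM + 10), genes with at least 50 UMIs, a threshold of 1 log2 unit between types and of 4-fold over the next type. Similar genes are the 3 with the highest r. Scripts were tested on simulated data. Alternatives were other pseudocounts, resolutions and cell filters, thinning to 1000 UMIs and leaving out each barcode number.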

Additional observations from a re-analysis of the deposited data

How the results depend on the processing

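Of the recomputed values, 153 were counted as the same, 10 as moved and 2 as stronger. The 153 include counts that went from 2 to 3 members, as where Id2 passed 4-fold without doublets. Thinned to 1000 UMIs per cell, Bmpr2 in endothelial-like cells stood at 71.4 CPM, and Id4 was at 472 CPM in ependymocyte-like cells, below tanycyte-like cells at 510.4 CPM. Leaving out each barcode number gave ranges, in the type that was highest with all cells, of 1116 to 1214 CPM for Bmp4, 81.1 to 102 for Bmp7, 63.2 to 88.7 for Bmpr1a, 37.6 to 43.7 for Bmpr1b, 104 to 149 for Bmpr2, 1171 to 1439 for Id1, 1263 to 1357 for Id2, 1273 to 1616 for Id3 and 455 to 535 for Id4. Without number 1 the highest type became OPC-like for Bmp7 and mural-like for Bmpr1a. Leaving out a number gave 2 to 3 members past 4-fold, a 2-fold rule gave 5, and counting unnamed clusters as types, chosen after seeing the data, gave 0. With a pseudocount of 1 CPM, Id4 passed as higher in mature oligodendrocyte-like than in diffOPC-like cells (1.21, so 1 member), and Id3 as lower in diffOPC-like than in OPC-like cells (-1.19). The causes were not tested. No paired analysis was possible because barcode numbers are not tied to libraries or conditions. Types with few UMIs (endothelial, mural, pars tuberalis) limit the precision most.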
